A study of Mus musculus with 16 samples.

Results

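Ccr2, Ly6c2, Plac8, Chil3, Arg1, Mmp12, Fn1 and Lyz2, 8 genes used as markers of blood monocytes and of the macrophages they form in inflamed tissue, were followed in RNA-seq of brain samples labelled as microglia from EAE mice and PBS-treated mice. They were taken by gene symbol from the count and FPKM tables, where all 8 were present among 21878 genes. The mice were female wild-type C57BL/6 animals aged 8 weeks. In 8 of them EAE, an autoimmune inflammation of the central nervous system that serves as a model of multiple sclerosis, was induced with MOG peptide in complete Freund's adjuvant together with 200 ng of pertussis toxin per dose, and the other 8 received PBS injections on the same schedule. Brains were taken on day 14, at the peak of disease, and CD11b+/CD45int cells were sorted as microglia, with 1 stranded, rRNA-depleted total RNA library per mouse. The treatment field of the labels gives MOG residues 35 to 55 for EAE 1 and moves the last residue by 1 per mouse, up to 62 for EAE 8, whereas the protocol gives 35 to 55 throughout.

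Ly6C-high monocytes leave the bone marrow and enter inflamed tissue by following ligands of the chemokine receptor CCR2. In the central nervous system of EAE mice they become macrophages and dendritic cells, some of which make arginase 1 and matrix-degrading enzymes. Resident microglia share many myeloid genes with them but carry less CD45 on the surface, so a CD45int gate is meant to leave most monocyte-derived cells out. In bulk RNA, more cells of a type and more RNA of a gene per cell cannot be told apart.

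Total counts were 24587443 to 30244215 per library of the EAE group and 26031889 to 34184576 per library of the PBS group. EAE 6, EAE 7 and EAE 8 resembled each other more than the rest of their group, as did PBS 5, PBS 7 and PBS 8. The squared difference between 2 libraries of a group was 3.12 to 4.03 times counting noise for these 6 pairs. For the other 50 pairs it was 6.07 to 24.5 times. EAE and PBS libraries were not compared with each other this way, so "most alike" below refers to likeness within a group. The labels name no batch, and the differences are therefore also given within these 6 libraries and within the other 10. The microglial label was checked against marker lists. Mean FPKM of 12 microglial markers was 7.64 to 14.3 per library, and in 16 of 16 libraries it lay below the means of the neuronal (105 to 137), astrocytic (138 to 200) and oligodendrocytic (146 to 206) markers. The markers thus do not bear out the label of sorted microglia, and the reason was not tested. In the plot of marker lists, the 8 monocyte genes lay with the neutrophil markers, under the microglial list.

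**Figure D1:**
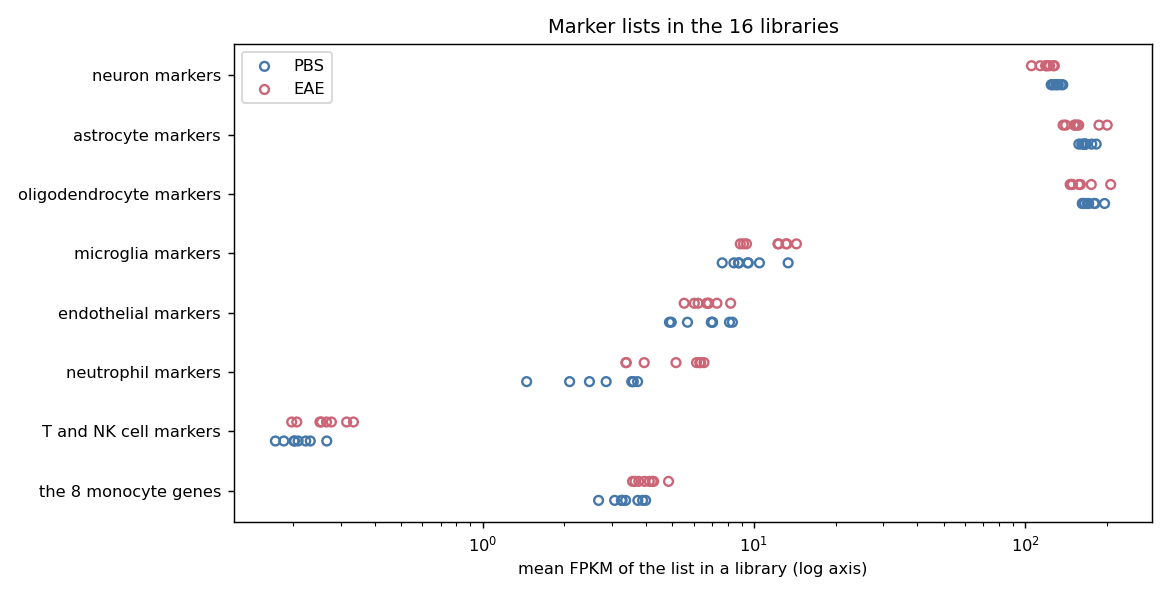
Mean FPKM of each marker list in each of the 8 PBS and 8 EAE libraries, on a log axis, with 1 circle per library. Neuronal, astrocytic and oligodendrocytic means lay above 100 in every library, and the mean of the 8 monocyte genes lay between 2.68 and 4.84.

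All 8 genes had a fitted log2FC above 0, EAE over PBS, and none passed the test. Over the 17885 genes tested with edgeR's quasi-likelihood test, 52.7% had a log2FC above 0. At a Benjamini-Hochberg adjusted p under 0.05, 0 of the 8 genes were called higher and 0 lower, against a background of 0.66% of tested genes called higher and 1.76% called lower. At an unadjusted p under 0.05, Arg1 and Mmp12 (2 of 8) were higher, against 7.92% of tested genes. With the added threshold of a |log2FC| over 1, which defines a DEmRNA, 0.0951% of tested genes were higher and 0.0224% lower. The median log2FC was 0.61 over the 8 genes and 0.01 over all tested genes. No gene of the 8 had FPKM values of the 2 groups fully apart, which occurred upward in 0.162% of tested genes. The exact permutation test of mean FPKM, two-sided over 12870 divisions with a smallest possible p of 0.000155, called 0 of the 17885 tested genes after adjustment. Before adjustment it gave 2504 genes a p under 0.05 with the higher mean in the EAE group, Arg1 and Mmp12 among them.

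**Figure D2:**
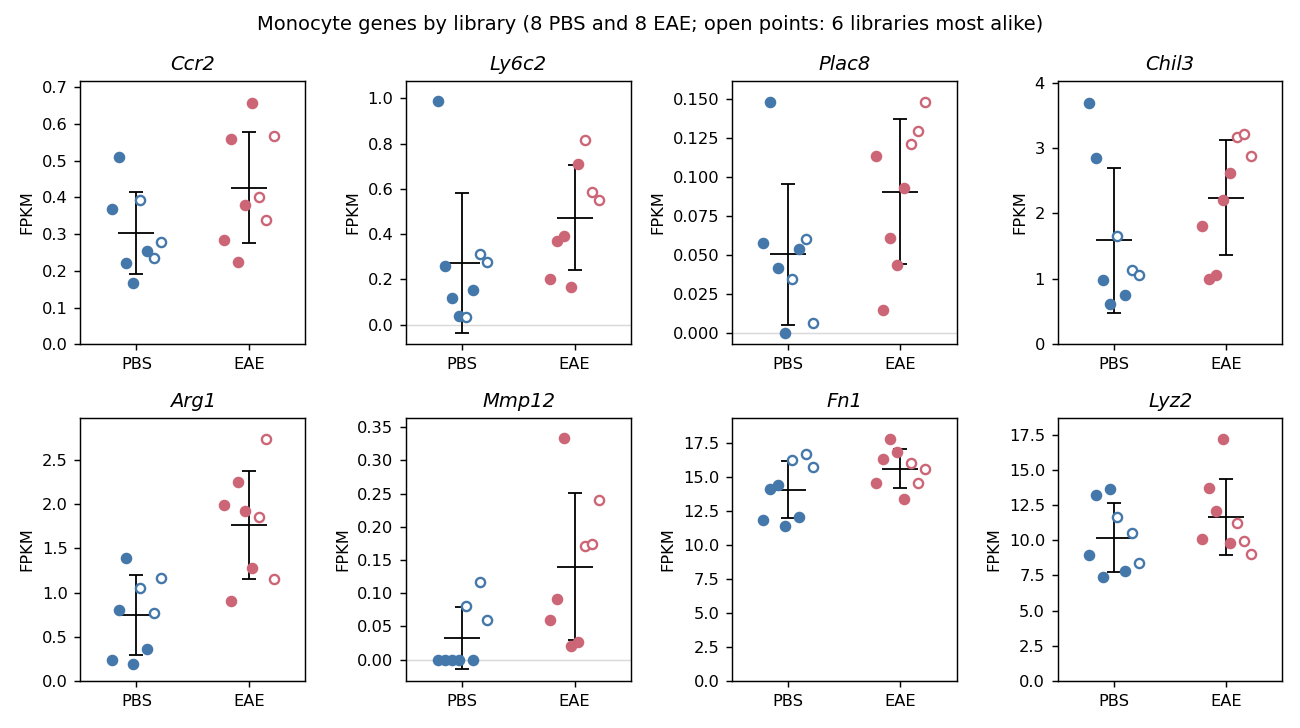
FPKM of each monocyte gene in the 8 PBS (blue) and 8 EAE (red) libraries, with the mean and SD in black. Open points are the 6 libraries most alike. All 8 EAE values of Arg1 lay above the PBS median, and Mmp12 was at 0 in 5 PBS libraries.

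Ccr2 encodes the receptor that draws monocytes to the ligands CCL2, CCL7 and CCL12, and its transcript lies at chr9:124101950-124113557 (GRCm38, + strand). Its counts had a lowest value, median and highest value of 22, 40.5 and 79 across the EAE group against 19, 33 and 67 across the PBS group. The groups overlapped over most of their range, although 7 of 8 EAE libraries lay above the PBS median in FPKM. Mean FPKM was 0.427 ± 0.152 (SD, n = 8) in the EAE group against 0.304 ± 0.112 in the PBS group. The log2FC was 0.44 (SE 0.25, 95% interval −0.09 to 0.97, edgeR adjusted p = 0.393).

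Ly6c2 encodes the surface protein that gives Ly6C-high monocytes their name, and lies at chr15:75108158-75111970 (GRCm38, − strand). It is hard to count apart from Ly6c1, a neighbouring paralog that endothelial cells express. The coding sequences of both have 393 bases, differ at 9 of them (97.7% identity) and share an unbroken run of 188. The first 150 coding bases hold 6 of the differences and are shown here from GENCODE transcripts on GRCm38, with capitals at the bases that differ.
Ly6c2: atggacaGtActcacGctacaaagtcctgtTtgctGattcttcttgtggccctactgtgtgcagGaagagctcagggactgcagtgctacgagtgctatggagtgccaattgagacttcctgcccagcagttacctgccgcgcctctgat
Ly6c1: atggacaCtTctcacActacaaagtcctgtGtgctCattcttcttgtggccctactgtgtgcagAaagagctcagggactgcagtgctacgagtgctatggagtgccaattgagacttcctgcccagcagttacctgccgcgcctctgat
After the last capital the stretch is the same in both. Of all 75-base windows of the main Ly6c2 transcript, 21.9% also occur in Ly6c1 transcripts. How the authors' counting treated reads that match both genes is not given in the sources used here.

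Ly6c2 was counted only 4 to 20 times per library of the EAE group (median 11) and 1 to 24 times per library of the PBS group (median 6). The highest library of all was PBS 1, and no EAE library lay above the PBS range. Mean FPKM was 0.473 ± 0.232 (SD, n = 8) in the EAE group against 0.272 ± 0.308 in the PBS group, for a log2FC of 0.76 (SE 0.54, 95% interval −0.35 to 1.88, edgeR adjusted p = 0.494). Dropping each library in turn, the lowest log2FC was 0.59, without PBS 5 (edgeR adjusted p = 0.629). The highest was 1.39, without PBS 1 (edgeR adjusted p = 0.145). Ly6c1 stood at 259 to 617 counts across the EAE group against 445 to 697 across the PBS group, with a log2FC of −0.32 (edgeR adjusted p = 0.291). Its fitted difference thus had the sign opposite to that of Ly6c2.

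Plac8 encodes a small cysteine-rich protein abundant in Ly6C-high monocytes and other leukocytes, and lies at chr5:100553725-100572245 (GRCm38, − strand). Its counts were 2 to 20 across the EAE group (median 15.5) against 0 to 26 across the PBS group (median 7). As with Ly6c2, a single PBS library (PBS 2) held the highest count, although in FPKM EAE 8 was level with it at 0.148. Mean FPKM was 0.0904 ± 0.0466 (SD, n = 8) in the EAE group against 0.0501 ± 0.0454 in the PBS group, and its log2FC was 0.78 (SE 0.55, 95% interval −0.37 to 1.93, edgeR adjusted p = 0.499). With libraries dropped singly, its log2FC was lowest without PBS 4, at 0.59 (edgeR adjusted p = 0.561). The highest value was 1.27, without PBS 2 (edgeR adjusted p = 0.303).

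Chil3 encodes the chitinase-like protein Ym1, which monocytes, neutrophils and alternatively activated macrophages secrete. It lies at chr3:106147554-106167564 (GRCm38, − strand), and 14.2% of the 75-base windows of its main transcript also occur in Chil4 or Gm6522. Counts were 40 to 136 across the EAE group (median 100) against 27 to 148 across the PBS group (median 55). PBS 1 and PBS 2 held the 2 highest counts of all 16 libraries, while the other 6 PBS libraries reached at most 83. In FPKM, PBS 1 was still the highest at 3.69, while PBS 2 stood at 2.85, below EAE 6, EAE 7 and EAE 8. Mean FPKM was 2.24 ± 0.885 (SD, n = 8) in the EAE group against 1.59 ± 1.11 in the PBS group, for a log2FC of 0.45 (SE 0.34, 95% interval −0.25 to 1.15, edgeR adjusted p = 0.527).

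Lyz2 encodes lysozyme M, a secreted enzyme that cuts bacterial cell walls and is expressed by monocytes, macrophages, neutrophils and, at a lower level, microglia. It lies at chr10:117277331-117282321 (GRCm38, − strand). Counts were 242 to 471 across the EAE group (median 312.5) against 212 to 461 across the PBS group (median 326.5), and the 2 ranges of counts nearly coincided. In FPKM, which takes depth into account, the ranges were 9.04 to 17.2 and 7.37 to 13.6. There, 2 of 8 EAE libraries lay above the highest PBS library. Mean FPKM was 11.6 ± 2.69 (SD, n = 8) in the EAE group against 10.2 ± 2.44 in the PBS group, for a log2FC of 0.13 (SE 0.15, 95% interval −0.17 to 0.44, edgeR adjusted p = 0.685). In fold terms the interval runs from 0.890 to 1.35, which leaves out a 2-fold difference in either direction. The paralog Lyz1 held at most 10 counts in any library, and 5.96% of the Lyz2 windows occur in it.

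Arg1 encodes arginase 1, which turns arginine into ornithine and urea and is a widely used marker of a subset of monocyte-derived macrophages in EAE lesions. It lies at chr10:24915221-24927484 (GRCm38, − strand), and no 75-base window of its main transcript occurs in another gene. From EAE 1 to EAE 8 its counts were 78, 35, 82, 74, 57, 72, 111 and 43, and from PBS 1 to PBS 8 they were 9, 39, 56, 8, 51, 15, 39 and 53. In FPKM, all 8 EAE libraries lay above the PBS median and 5 lay above the highest PBS library. The PBS libraries themselves spread widely, with PBS 1, PBS 4 and PBS 6 at 8 to 15 counts and the other 5 at 39 to 56.

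Mean FPKM of Arg1 was 1.76 ± 0.612 (SD, n = 8) in the EAE group against 0.747 ± 0.449 in the PBS group. The log2FC was 1.18 (SE 0.34), a 2.26-fold difference with a 95% interval of 1.40 to 3.67. Its unadjusted p of 0.00202 ranked 561 of 17885 in the edgeR quasi-likelihood test, and the adjusted p was 0.0641, short of the threshold. The two-sided exact permutation test of FPKM gave p = 0.00311 (adjusted p = 0.104).

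Mmp12 encodes macrophage elastase, which degrades elastin and other matrix proteins. It lies at chr9:7344381-7369499 (GRCm38, + strand) and overlaps the gene model of Mmp1b, although no 75-base window of its main transcript occurs in another gene. It had the largest fitted log2FC of the 8 genes, and the 250 bases before its 2 annotated start sites are shown for that reason (RefSeq, GRCm38.p6, + strand). Site 1 covers chr9:7344147-7344396, with capitals at matches to ACTTCCTC, the reverse complement of the PU.1 motif GAGGAAGT, and to the C/EBP motif TTNNGCAA. Site 2 covers chr9:7347124-7347373, with capitals at a match to the AP-1 motif TGANTCA.
Mmp12 site 1: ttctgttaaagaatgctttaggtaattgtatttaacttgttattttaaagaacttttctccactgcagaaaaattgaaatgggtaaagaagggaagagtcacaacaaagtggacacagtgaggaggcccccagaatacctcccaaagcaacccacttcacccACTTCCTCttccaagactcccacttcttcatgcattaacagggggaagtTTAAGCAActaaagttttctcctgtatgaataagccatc
Mmp12 site 2: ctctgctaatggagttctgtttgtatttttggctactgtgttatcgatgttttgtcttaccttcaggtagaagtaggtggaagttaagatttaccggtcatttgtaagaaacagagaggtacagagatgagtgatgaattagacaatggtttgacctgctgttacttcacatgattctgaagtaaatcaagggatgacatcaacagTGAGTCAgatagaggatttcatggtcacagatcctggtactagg
These are matches of letters and not known binding sites. Searched on both strands at 1 start site per gene, the PU.1 motif was present in 2.44% of 27025 promoters of the same length. The C/EBP motif TTGCNNAA was present in 9.55%, the AP-1 motif in 6.87% and a 10-letter NF-kappaB motif in 1.4%. For the monocyte genes, every listed start site was searched. Promoter entries were found for 6 of the 8 genes, not for Arg1 or Fn1. Ly6c2 held PU.1 matches before both of its start sites, Plac8 held 1 C/EBP match, and Ccr2, Chil3 and Lyz2 held none of the 4 motifs. The 2 Ly6c2 windows overlap, and the match at base −108 of site 1 is the same stretch as that at base −142 of site 2.

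Mmp12 was counted 6, 9, 31, 2, 3, 17, 18 and 23 times from EAE 1 to EAE 8. In PBS 1, 2, 3, 4 and 6 it was at 0 counts, each of which allows up to 3, and in PBS 5, PBS 7 and PBS 8 it had 10, 15 and 7 counts. Every EAE library had at least 2 counts, and the 3 PBS libraries with any were the 3 most alike. Mean FPKM was 0.140 ± 0.111 (SD, n = 8) in the EAE group against 0.0322 ± 0.0469 in the PBS group. The log2FC was 1.97 (SE 0.77, 95% interval 0.36 to 3.57, edgeR adjusted p = 0.184), and the two-sided exact permutation test of FPKM gave p = 0.0207 (adjusted p = 0.191). When single libraries were dropped in turn, the log2FC was lowest without EAE 3, at 1.66 (edgeR adjusted p = 0.323). It was highest without PBS 7, at 2.61 (edgeR adjusted p = 0.113).

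Fn1 encodes fibronectin, a matrix glycoprotein made by Ly6C-high monocytes but also by endothelial cells, fibroblasts and other cells. It lies at chr1:71585520-71653200 (GRCm38, − strand), and its gene model overlaps that of Apol7d. Counts were 3249 to 3687 across the EAE group (median 3473.5) against 2600 to 4804 across the PBS group (median 3613), so the EAE counts fell inside the PBS range. In FPKM, which takes depth into account, 2 of 8 EAE libraries lay above the highest PBS library. Mean FPKM was 15.6 ± 1.41 (SD, n = 8) in the EAE group against 14.05 ± 2.1 in the PBS group, and its log2FC was 0.10 (SE 0.08, 95% interval −0.07 to 0.27, edgeR adjusted p = 0.558). It was the most precisely measured of the 8 genes, and the interval leaves at most a 1.20-fold higher level.

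Set side by side in FPKM, which is per length, the order of mean levels in EAE mice was Fn1, Lyz2, Chil3, Arg1, Ly6c2, Ccr2, Mmp12 and Plac8. Among neighbours in that order, only Lyz2 and Chil3, and Arg1 and Ly6c2, had ranges that did not overlap. In PBS-treated mice Ccr2 stood above Ly6c2 and Plac8 above Mmp12, and among neighbours only the ranges of Lyz2 and Chil3 did not overlap. The place of Plac8 rests on a length of 5.336 kb behind its FPKM values, 3.35 times the 1.592 kb that its GENCODE exons cover. For the other 7 genes this ratio was 0.34 to 0.94, so FPKM levels of different genes are comparable only roughly.

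Within the 6 libraries most alike, the picture was not the same for every gene. Chil3 stood at 2.87 to 3.22 FPKM in EAE 6, 7 and 8 and at 1.05 to 1.65 in PBS 5, 7 and 8, with a log2FC of 1.24 (edgeR adjusted p = 0.000134). Plac8 (log2FC 1.91, edgeR adjusted p = 0.0328) and Arg1 (log2FC 0.92, edgeR adjusted p = 0.0286) were also higher, whereas Ly6c2 (log2FC 1.59, edgeR adjusted p = 0.0834) and Mmp12 (log2FC 1.14, edgeR adjusted p = 0.134) did not pass. Those 3 calls are read against a background of 11.0% of 17239 tested genes called higher and 13.1% called lower in these 6 libraries. The 6 were picked for small differences within a group, which also lowers the spread that the test uses. P-values within them may therefore be too small, and their groups may overlap less than those of other libraries. The FPKM values of Chil3, Ly6c2, Plac8 and Mmp12 did not overlap between the 3 EAE and 3 PBS libraries, as for 21.5% of tested genes upward, while those of Arg1 did. Ccr2 had a log2FC of 0.50 (edgeR adjusted p = 0.302), Fn1 of −0.11 (edgeR adjusted p = 0.0509) and Lyz2 of −0.047 (edgeR adjusted p = 0.826).

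In the other 10 libraries none of the 8 genes was called, against 0.0458% of tested genes called higher. Chil3 ranged from 0.996 to 2.62 FPKM in EAE 1 to 5 and from 0.611 to 3.69 in the 5 PBS libraries, with a log2FC of −0.092. Ly6c2 had a log2FC of 0.20 and Plac8 of 0.03. Arg1 kept a log2FC of 1.40 (edgeR adjusted p = 0.256), with 1.67 ± 0.560 FPKM (SD, n = 5) against 0.596 ± 0.507. Mmp12 was at 0 counts in all 5 PBS libraries and at 2 to 31 counts in EAE 1 to 5, which makes it at least 3.80-fold higher when each PBS library is set to 3 counts. This bound rests on EAE 3 with its 31 counts: without that library, a check chosen after the values were seen, it was 1.77-fold. Ccr2 had a log2FC of 0.40 in these 10 libraries, Fn1 of 0.24 and Lyz2 of 0.23. The differences between the 2 sets of libraries were not tested.

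**Figure D3:**
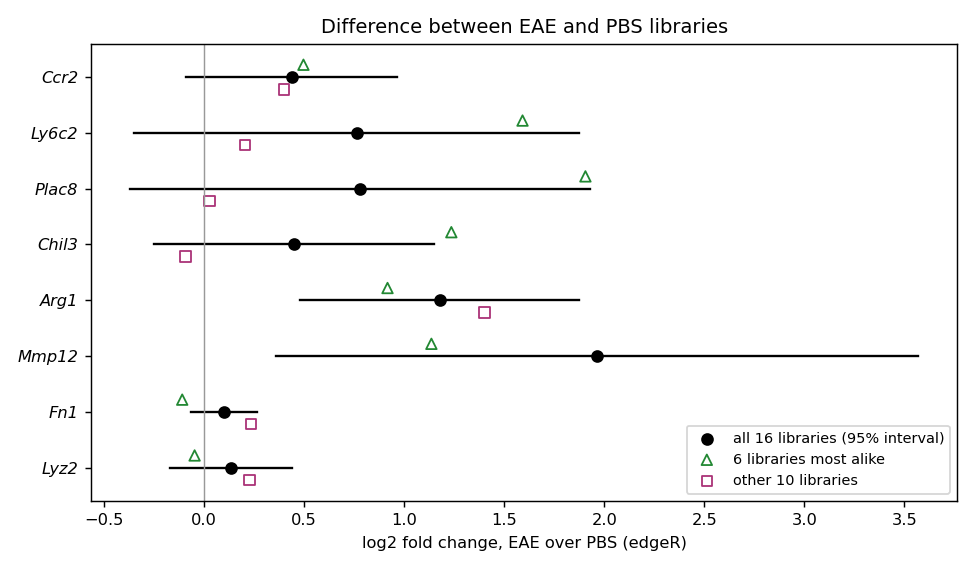
Log2 fold change of EAE over PBS from edgeR for each monocyte gene, with the 95% interval over all 16 libraries in black and the values within the 6 libraries most alike (triangles) and the other 10 (squares). Mmp12 has no square because its PBS counts there were all 0. Of the 7 genes with both symbols, Chil3, Plac8 and Ly6c2 differed most between the 2 sets, at 1.24 and −0.092, 1.91 and 0.03, and 1.59 and 0.20.

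Arg1 lay close to the threshold, and its call depended on the test. It was higher with DESeq2's Wald test (adjusted p = 0.0148, background 1.84% called higher), with edgeR's exact test (adjusted p = 0.0213, background 1.45%) and with a term for the set of libraries in the quasi-likelihood model (adjusted p = 0.0358, background 1.35%). Of the 16 edgeR fits that each left out 1 library, those without EAE 4 (adjusted p = 0.0476, background 2.81%) and without EAE 5 (adjusted p = 0.0441, background 1.64%) called it, and the highest adjusted p was 0.126, without EAE 7. Its log2FC stayed between 1.03 and 1.36 in those 16 fits. On FPKM values, limma called it with a pseudocount of 1 (adjusted p = 0.0473, background 0.878%) but not with 0.1 (adjusted p = 0.0569). Mmp12 was called only with the term for the set of libraries (log2FC 2.64, edgeR adjusted p = 0.0386) among the settings that kept all 16 libraries. The set was chosen with earlier results known and for small differences within a group. Its 3 PBS libraries are the only ones with Mmp12 counts, so the term takes up that spread. P-values with this term, for Arg1 and Mmp12, may therefore be too small. Ccr2, Ly6c2, Plac8, Chil3, Fn1 and Lyz2 were called in no setting over all 16 libraries and in no fit without 1 library.

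**Figure D4:**
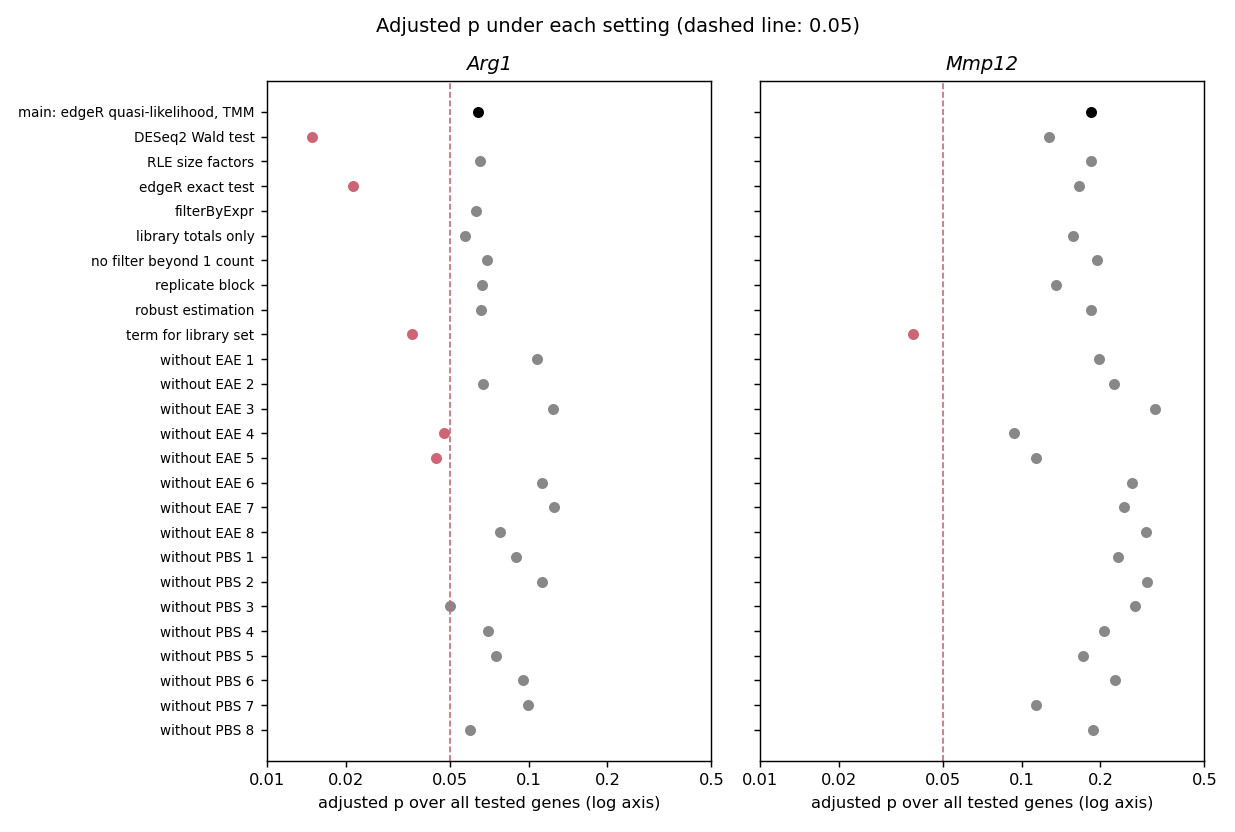
Adjusted p over all tested genes, on a log axis, for Arg1 and Mmp12 under each setting that kept all 16 libraries and without each library, with red points under 0.05. Arg1 lay between 0.0148 and 0.126, and Mmp12 between 0.0386 and 0.323 (it fell below the count filter of filterByExpr and has no point there).

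Other genes of Ly6C-high monocytes had a median log2FC of 0.27 over 23 tested genes, and 2 of 23 were called higher and 0 lower. The shares over all tested genes were 0.66% higher and 1.76% lower. Lgals3, the galectin that phagocytic macrophages and activated microglia express, had a log2FC of 0.96 (SE 0.17, edgeR adjusted p = 0.00704), with 4.04 ± 0.969 FPKM (SD, n = 8) in the EAE group against 2.00 ± 0.471 in the PBS group. S100a6, a calcium-binding protein of many cell types, had a log2FC of 0.47 (SE 0.11, edgeR adjusted p = 0.0281). For both, 7 of 8 EAE libraries lay above the highest PBS library. The next smallest p was that of Mgst1, with a log2FC of −0.30 (edgeR adjusted p = 0.142). Among 8 genes of patrolling monocytes, the Ly6C-low cells that crawl along vessel walls, none was called and the median log2FC was 0.29. Ace (log2FC −0.27), Eno3 (0.32) and Fcgr4 (0.39) had the smallest p-values, with edgeR adjusted p-values of 0.0775, 0.166 and 0.451.

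Of 9 genes for CCR2 ligands, growth factors of myeloid cells and their receptors, 0 were called in either direction, with a median log2FC of 0.37. The CCR2 ligand Ccl12 stood at 1.97 to 9.15 FPKM in EAE mice (median 6.52) and 0.335 to 4.80 in PBS-treated mice (median 1.94). All 8 EAE libraries were above the PBS median, with a log2FC of 1.08 (SE 0.37, edgeR adjusted p = 0.125). Csf2rb, the signalling chain of the GM-CSF receptor, had a log2FC of 0.37 (edgeR adjusted p = 0.183), and Csf1, the growth factor of monocytes and microglia, had one of 0.15 (edgeR adjusted p = 0.383). The genes of monocyte-derived macrophages gave the same count, 0 of 14, with a median log2FC of 0.24. The 3 with the smallest p were Cxcl16, a membrane-bound chemokine (log2FC 0.77, edgeR adjusted p = 0.0634), Il1rn, the interleukin-1 receptor antagonist (log2FC 2.02, edgeR adjusted p = 0.164), and Nos2, the inducible nitric oxide synthase (log2FC 0.95, edgeR adjusted p = 0.263).

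Arginase competes with nitric oxide synthases for arginine, and the other genes of arginine and polyamine metabolism centred on no difference, with 0 of 15 called and a median log2FC of 0.01. Nos1, the neuronal synthase, had a log2FC of −0.29 (edgeR adjusted p = 0.0689), and Asl, which makes arginine, had one of 0.14 (edgeR adjusted p = 0.374). Arg2, the mitochondrial arginase, stood at 3.21 ± 0.674 FPKM (SD, n = 8) in the EAE group against 3.09 ± 0.460 in the PBS group, for a log2FC of 0.01 (95% interval −0.27 to 0.29). The 95% intervals of Arg1, 0.48 to 1.87, and Arg2 on the log2 scale did not overlap, but the difference between the 2 genes was not tested.

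The list of matrix metalloproteinases other than Mmp12, their inhibitors and elastin (Eln) had 0 of 12 tested genes called, with a median log2FC of 0.15. Timp2 had a log2FC of −0.22 (edgeR adjusted p = 0.0571) and Timp1, an inhibitor that reactive astrocytes also make, had one of 0.54 (edgeR adjusted p = 0.171). Mmp3, which lies in the same gene cluster as Mmp12, had 0 to 52 counts across the EAE group against 0 to 25 across the PBS group (log2FC 1.61, edgeR adjusted p = 0.325). Fibronectin receptors and matrix partners had 3 of 12 genes called higher and 1 lower, against 0.66% and 1.76% of all tested genes. Tnc, the matrix protein tenascin C, had a log2FC of 0.49 (edgeR adjusted p = 0.0074), the fibronectin receptor subunit Itga5 one of 0.49 (edgeR adjusted p = 0.0261), and Itga8, a subunit of another receptor for fibronectin and related proteins, one of 0.28 (edgeR adjusted p = 0.0414). Vtn, which encodes vitronectin, was lower, with a log2FC of −0.47 (edgeR adjusted p = 0.04). Fn1 itself did not pass (log2FC 0.10). Of 14 paralogs of the 8 genes, Chil5 alone was called (log2FC 0.40, edgeR adjusted p = 0.0414). Ccr1 (log2FC 0.71, edgeR adjusted p = 0.144) had the next smallest p.

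The 7 called genes of these lists (Lgals3, S100a6, Tnc, Itga5, Itga8, Vtn and Chil5) had the same sign of log2FC in both sets of libraries, and all 7 passed within the 6 libraries most alike and none within the other 10. They had been picked by their calls over all 16 libraries, of which both sets are parts, so this is no independent check. Lgals3 had a log2FC of 0.93 in the 6 (edgeR adjusted p = 0.000465) and 0.99 in the 10 (edgeR adjusted p = 0.112), and Vtn had −0.82 (edgeR adjusted p = 1.45e-08) and −0.28 (edgeR adjusted p = 0.58). Of the other Ly6C-high monocyte genes, 10 of 22 tested were called higher and 1 lower in the 6 libraries, and 0 of 23 were called in the other 10. Over all tested genes, 11.0% were called higher and 13.1% lower in the 6 libraries, and 0.0458% higher in the other 10. Within the other 10 libraries the only calls among the monocyte-related, arginine, metalloproteinase, fibronectin and paralog lists were 2 of 13 genes of monocyte-derived macrophages. These were Il1rn (edgeR adjusted p = 0.0359) and Saa3 (edgeR adjusted p = 0.0356), the latter named after its values were seen.

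**Figure D5:**
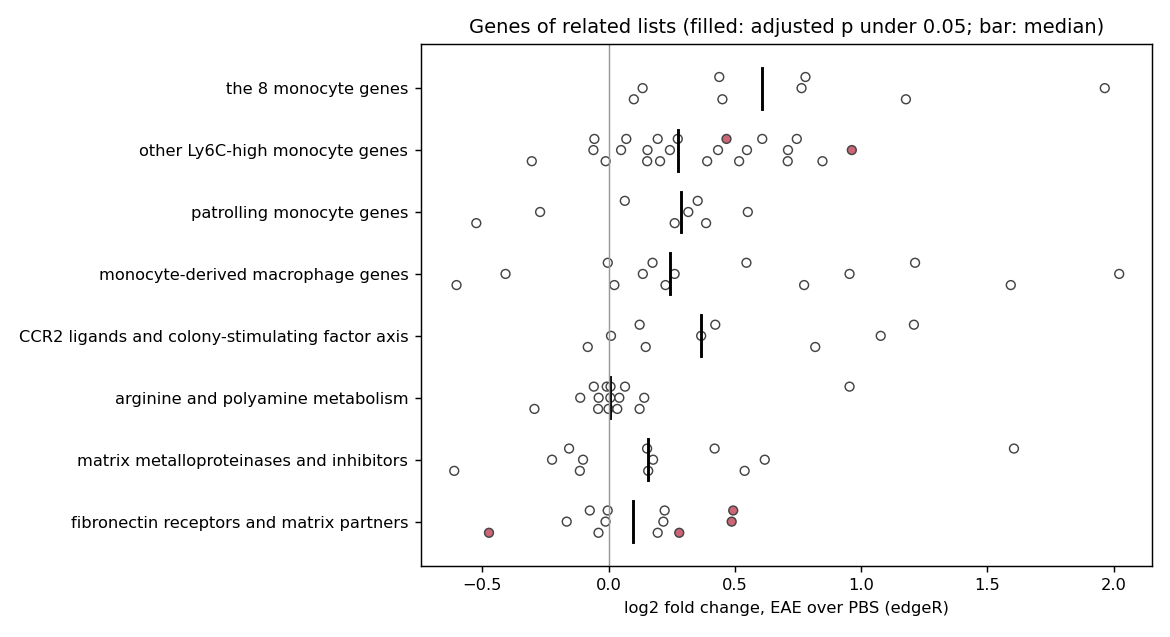
Log2 fold change of EAE over PBS from edgeR for every tested gene of each list, with filled points at an adjusted p under 0.05 and a black bar at the median. The 8 monocyte genes had a median of 0.61 and no filled point, and the genes of arginine and polyamine metabolism gathered near 0 except Nos2 at 0.95.

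Neutrophils carry some of the same genes, including Chil3 and Lyz2, and their markers moved with the groups. The summed FPKM of the neutrophil list was 54.0 to 105 across the EAE group against 23.3 to 59.6 across the PBS group, and 4 of 14 tested markers (Ngp, Ltf, S100a9 and S100a8) were called higher and 0 lower. Over all tested genes and all 16 libraries, 0.66% were called higher and 1.76% lower. The median log2FC over these 14 was 1.08, or 0.84 with 1 gene set at its bound, and none of the 16 markers listed was at 0 counts in all libraries. Summed FPKM of T and NK cell markers was 2.38 to 4.01 across the EAE group against 2.07 to 3.20 across the PBS group, with 0 of 9 tested markers called. Border-associated macrophage markers summed to 4.52 to 10.8 and 3.95 to 7.77, with 0 of 8 called, and endothelial markers to 44.3 to 65.6 and 39.1 to 66.6, with 0 of 8 called. The neutrophil list had 8 of 12 tested markers called higher within the 6 libraries most alike and 0 of 14 within the other 10, with medians of 1.00 and 1.12. The shares of all tested genes called higher were 11.0% in the 6 libraries and 0.0458% in the other 10. Other lists also differed. Neuronal markers summed to 843 to 1024 FPKM across the EAE group against 996 to 1099, with 7 of 8 below 0 in log2FC and 2 (Gad1 and Syt1) called lower. Choroid plexus markers summed to 78.6 to 135 against 96.9 to 241, with 1 of 6 (Ttr) called lower, and 1 of 6 astrocytic markers (Gfap) was called higher. Microglial markers summed to 107 to 172 against 91.7 to 160, with 11 of 12 above 0 in log2FC and 1 (Trem2) called higher. The part of other cell types in the values of the 8 monocyte genes was not tested.

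The 8 genes did not share 1 pattern over the libraries. Likeness was measured as the root mean square difference between standardised log2 CPM profiles over 16 libraries after each group's mean was subtracted. A smaller value means more alike. For the 6 monocyte genes with a mean of at least 10 counts, the typical gene differed by 1.35 to 1.38. Arg1 was closest to Fn1 (0.745) among the 8 genes, Plac8 to Chil3 (0.760) and Mmp12 to Fn1 (0.795), while Ly6c2 and Lyz2 were the least alike pair (1.63). Counting noise weighs more in the profiles of Ly6c2 and Mmp12, which averaged 9.63 and 8.81 counts. Without those genes, Plac8 and Lyz2 were the least alike pair (1.56). Among all genes with a mean of at least 20 counts, Chil3 was closest to Lnx2 (0.50), Retnlg (0.548) and Itpkc (0.548), and Arg1 to Fignl2 (0.509), Ccdc106 (0.509) and Fkbp4 (0.525). Retnlg is a neutrophil gene, with a log2FC of 0.35 (edgeR adjusted p = 0.611). Fn1 was closest to Maml2 (0.405), Prmt1 (0.456) and Rtfdc1 (0.490), and Lyz2 to Slitrk2 (0.439), Bre (0.491) and Slitrk4 (0.497). The closest genes to Ccr2 were Kif26a (0.535), Slc30a1 (0.545) and Zfp276 (0.568), and those to Plac8 were Pi4k2a (0.571), Gapdh (0.573) and Ppfia3 (0.588). Ly6c2 and Mmp12 averaged under 10 counts per library and were left out of that search. These profiles share library depth and the same 16 mice, and the nearest genes were picked from 15162 candidates (15163 for Plac8).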

How the data were processed

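RNA-seq counts and FPKM values of the same genes were deposited for 16 libraries. The authors aligned stranded paired reads to GRCm38 and made the deposited raw counts. HISAT2 2.1.0, HTSeq 0.11.2 and DESeq2 1.22.2 are named in the submitters' processing notes, and the strand setting is not given in the sources used here. The gene length implied by the authors' FPKM values and the counts was the same in every library to within a relative spread of 1.15e-09 in 7749 genes with over 500 counts. Libraries held 24587443 to 34184576 counts. The 95% intervals of log2FC include the spread between libraries, and floors for 0 counts cover counting error only.

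Counts were tested here with edgeR 4.0.16 in R 4.3.3 (TMM, quasi-likelihood test, two-sided, total of at least 16 counts, 17885 genes) with Benjamini-Hochberg adjustment over all tested genes. FPKM values were tested with limma 3.58.1 on log2(FPKM + 0.1) and by exact permutation. Alternatives used DESeq2 1.42.0, other filters and normalizations, a replicate block, subsets of libraries and leaving out each library. Replicate numbers did not pair the samples. Groups follow the labels. Named genes are all 8 monocyte genes, every called gene of a pathway or paralog list plus those up to 3 with the smallest p, and the 3 most alike profiles; Arg2, Ly6c1 and Lyz1 were added as relatives. The genes, the lists and the set of 6 libraries were chosen with earlier results of these data known.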

Additional observations from a re-analysis of the deposited data

Results flagged for a closer look

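Among the 16 groups of 8 values formed by the 8 monocyte genes and the 2 conditions, 2 held a value far from the rest by Dixon's criterion at 95%. In normally distributed values chance meets it in about 1 of 20 groups. That rate may not hold for genes with counts as low as those of Ly6c2 and Plac8. Ly6c2 in PBS 1 stood at 0.987 FPKM, and its gap to the next PBS library was 0.706 of the group's range. Plac8 in PBS 2 stood at 0.148 FPKM, with a gap of 0.591 of the range. PBS 1 and PBS 2 were also the libraries with the 2 highest counts of Chil3, 148 and 145. The cause was not tested.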

How the results depend on the processing

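The 8 monocyte genes were examined under 27 alternatives, and none was called lower in any. In edgeR's quasi-likelihood test over all libraries none was called higher. Arg1 (1 of 8) was with DESeq2, with edgeR's exact test and with limma on log2(FPKM + 1). The shares of all tested genes called higher there were 1.84%, 1.45% and 0.878%. With a term for the library set 2 of 8 were called, against 1.35% of tested genes. Within the 6 libraries most alike 3 of 8 were, against 11.0% called higher and 13.1% lower. Leaving out 1 library gave 0 to 1 (Arg1, without EAE 4 or EAE 5, against 2.81% and 1.64% of tested genes). Direction turned for Chil3 in the other 10 libraries (log2FC −0.092) and for Fn1 (−0.11) and Lyz2 (−0.047) in the 6. Over all genes, 17 DEmRNAs (adjusted p under 0.05 and |log2FC| over 1) were higher and 4 lower. Higher DEmRNAs numbered 44 with edgeR's exact test, 104 in the 6 libraries, 5 in the other 10, 34 with the library-set term, and 11 (without EAE 8) to 45 (without EAE 4) when 1 library was left out. Lower DEmRNAs numbered 1 with library totals only, with filterByExpr, with the replicate block and in the other 10 libraries, 8 with edgeR's exact test, 73 in the 6 libraries, and 1 to 7 (without PBS 4 or PBS 6) when 1 library was left out. Causes were not tested. Same-numbered samples deviated together in 3 of 8 pairs only (correlation over 0.1; range −0.25 to 0.59). With the replicate block, 15 DEmRNAs were higher and 1 was lower, and Arg1 had a log2FC of 1.29 (edgeR adjusted p = 0.0663). Ly6c2, Plac8 and Mmp12 averaged 9.63, 10.6 and 8.81 counts per library, and filterByExpr removed them.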
